A study of Haematococcus lacustris with 7 samples.

Results

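The sequences described here are the assembled transcripts of the green microalga *Haematococcus pluvialis* (listed in the labels under its other name, *Haematococcus lacustris*) whose annotation named the tricarboxylic acid cycle, the glyoxylate cycle or one of their enzymes. They were chosen by words in the names of their Gene Ontology (GO) terms, the standard vocabulary for the molecular function, biological process and cellular component of a gene product. A sequence was taken when a term name held any of 10 phrases: tricarboxylic acid cycle, glyoxylate cycle, citrate synthase, isocitrate, malate dehydrogenase, succinate dehydrogenase, fumarate hydratase, aconitate hydratase, oxoglutarate dehydrogenase or succinate-CoA ligase. Of the 6812 annotated sequences, 145 (2.13%) met this rule, through 27 distinct term names, and they came from 138 components of the assembly. A component is a group of overlapping contigs that the assembler Trinity treated as transcripts of the same gene or of close relatives.

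The transcriptome came from cells of a single culture, divided into 7 aliquots that became 7 libraries. The library N was the untreated control, and JA1, JA6 and JA24 were taken 1, 6 and 24 h after jasmonic acid was added at 25 mg/L. SA1, SA6 and SA24 were the matching times with salicylic acid at 25 mg/L. Each condition was represented by 1 library, and both compounds are plant hormones that raise the red carotenoid astaxanthin in this alga. The annotation table analysed here covers a single assembly and holds no value per library, so neither the depth behind a sequence nor a difference between N, JA and SA could be given. All values below are complete counts of listed sequences, with no replicates, no sampling interval and no test.

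The tricarboxylic acid cycle oxidises the acetyl group of acetyl-CoA to carbon dioxide in the mitochondrial matrix and passes the electrons, as NADH and reduced flavin, to the respiratory chain. Its intermediates also leave the cycle for amino acid, tetrapyrrole and lipid synthesis. The glyoxylate cycle shares several of its reactions but skips the decarboxylating ones through isocitrate lyase and malate synthase, which lets algae and plants build carbohydrate from acetate or from the breakdown of fatty acids. The GO terms were transferred from similar proteins of other organisms, so a listed activity or compartment is a prediction from sequence similarity.

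The term tricarboxylic acid cycle was listed for 109 of the 145 sequences and the term glyoxylate cycle for 15, of which 14 carried both. The remaining 35 sequences carried neither process name and were found through an activity or a complex. An enzyme activity of either cycle was listed for 119 sequences, and 26 had none. Of these 26, 16 were matched only through enzymes of other pathways whose names share a phrase, such as malic enzyme and homocitrate synthase. The set is therefore larger than the 2 cycles themselves, and the cycle enzymes are described first.

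Of 13 activities that make up both cycles, 12 were present among the sequences. The exception was dihydrolipoyl dehydrogenase, the flavoprotein that reoxidises the lipoyl arm of the oxoglutarate dehydrogenase complex. Its activity was listed for 9 sequences of the table, but 0 of the 9 carried a term that met the rule. The numbers of sequences per activity ranged from 3 for isocitrate lyase to 20 for succinate-CoA ligase. Whether several sequences of an activity are separate genes or pieces of the same transcript was not tested, since the table holds no sequence.

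**Figure D1:**
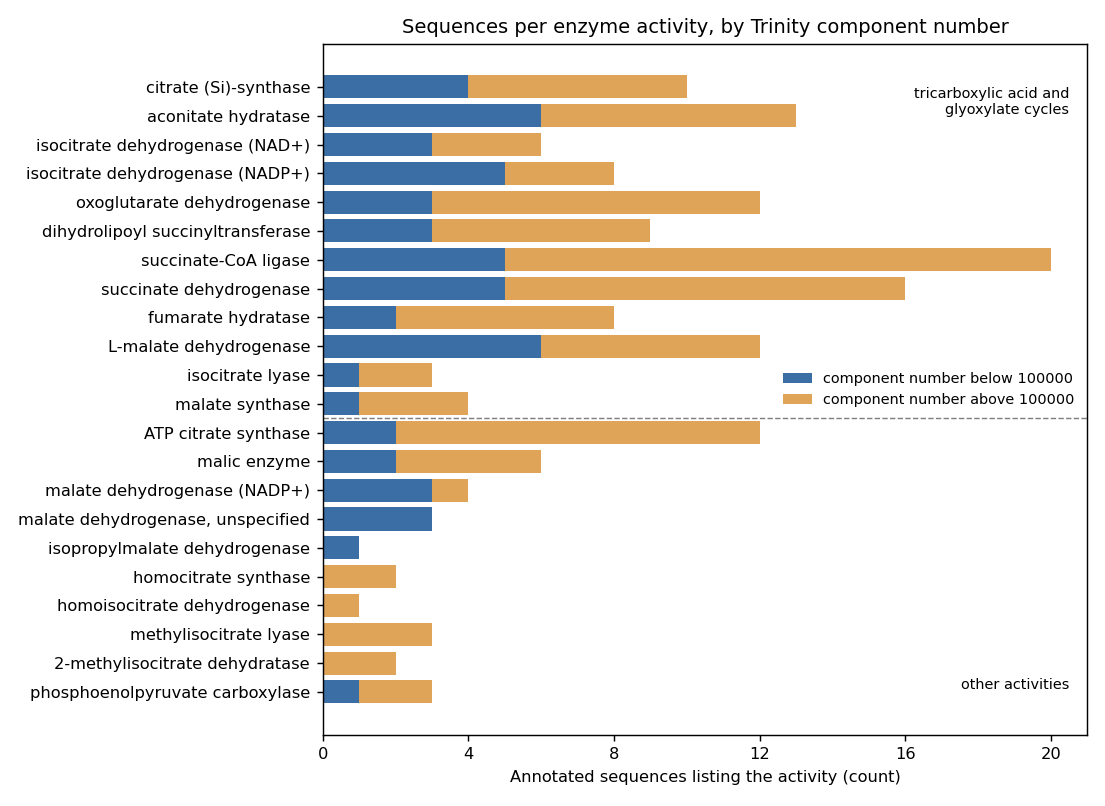
Number of annotated sequences (x axis) that list each enzyme activity (y axis), stacked by whether the Trinity component number lies below 100000 (blue) or above it (orange). Activities above the dashed line belong to the tricarboxylic acid and glyoxylate cycles, and a sequence that lists 2 activities appears in both bars. Succinate-CoA ligase has the longest bar, with 20 sequences, and 15 of them lie above 100000.

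Citrate (Si)-synthase, which condenses acetyl-CoA with oxaloacetate, was listed for 10 sequences of 10 components. Its term name does not hold the phrase citrate synthase, so all 10 were found through the tricarboxylic acid cycle term. The mitochondrial matrix was named for 8 of them. The best annotated of these, comp1449690_c0_seq1_2, carried 6 terms, including citrate metabolic process and glutamate biosynthetic process. Next by number of terms was comp1821_c0_seq1_5, which was placed in the matrix and also carried the term phagocytic vesicle. This animal and protist organelle was listed for 4 of the 10 citrate synthases and for 81 sequences of the whole table. The other 2 citrate synthases lay outside mitochondria. The peroxisome was named for comp62709_c0_seq1_16, together with fatty acid beta-oxidation, and the cytosol for comp921933_c0_seq1_12. In plants and yeast a peroxisomal citrate synthase takes up the acetyl-CoA released by fatty acid oxidation.

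Aconitate hydratase, the iron-sulfur enzyme that turns citrate into isocitrate, was listed for 13 sequences of 12 components. Every one of the 13 carried 4 iron, 4 sulfur cluster binding and 11 carried metal ion binding. The mitochondrion was named for 7 sequences, no compartment for 5 and the cytoplasm for 1. The cytoplasmic sequence, comp42155_c0_seq1_16, was also the single aconitase with the glyoxylate cycle as its process, while the other 12 carried the tricarboxylic acid cycle. Among the aconitases with the most terms, 9 each, were comp35663_c0_seq1_6, with copper ion binding, apoplast, vacuole and response to salt stress, and comp64309_c0_seq2_22. The latter and its companion comp64309_c0_seq3_22 were the only aconitases that listed a 3 iron, 4 sulfur cluster as well. A different form was seen in comp495634_c0_seq1_22 and comp995543_c0_seq1_11. Both listed 2-methylisocitrate dehydratase, an activity of bacterial propionate breakdown, beside aconitate hydratase, and both listed mRNA binding and regulation of translation. Bacterial aconitase B is known for both of these roles.

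Isocitrate dehydrogenase was present with both of its electron acceptors. The NAD+ form, the classical oxidative step of the mitochondrial cycle, was listed for 6 sequences, and the NADP+ form for 8 sequences of 6 components. Mitochondrial terms were listed for all 6 NAD+ sequences, and so were NAD or NADH binding and magnesium ion binding. Zinc ion binding was added for comp54436_c0_seq1_5, comp57645_c0_seq1_4 and comp65824_c3_seq2_17, the 3 NAD+ sequences with component numbers below 100000, and for none of the other 3. The chloroplast was named beside the mitochondrion for comp57645_c0_seq1_4 and the nucleolus for comp440816_c0_seq1_3. The sequence comp1056172_c0_seq1_3 listed the mitochondrial isocitrate dehydrogenase complex, the mitochondrial nucleoid and RNA binding, a combination known from the yeast enzyme. The sixth, comp699564_c0_seq1_2, had the fewest terms of these sequences, 6.

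All 8 NADP+ sequences carried both the tricarboxylic acid and the glyoxylate cycle term, and they made up 8 of the 14 sequences with both. They fell into a mitochondrial and a cytoplasmic form. The 4 mitochondrial sequences listed NAD or NADH binding, magnesium ion binding and 2-oxoglutarate metabolic process, and 3 of them were transcripts of the component comp63914_c1 (seq2_13, seq5_11 and seq7_13). The other, comp47965_c0_seq2_7, was placed in the inner membrane. The cytoplasm was named for comp15047_c0_seq1_2, comp739714_c0_seq1_3 and comp1023571_c0_seq1_3, and comp994195_c0_seq1_4 had no compartment. These 4 carried metal ion binding in place of NAD and magnesium. The 4 mitochondrial NADP+ sequences were all below component number 100000, and 3 of the other 4 were above it.

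The oxoglutarate dehydrogenase complex makes succinyl-CoA and holds 3 enzymes. The first, the thiamin-dependent oxoglutarate dehydrogenase, was listed for 12 sequences. The second, dihydrolipoyl succinyltransferase, which carries the lipoyl group, was listed for 9. The process terms of these subunits differed. All 12 dehydrogenase sequences carried glycolysis and 0 carried the tricarboxylic acid cycle, whereas all 9 succinyltransferase sequences carried the tricarboxylic acid cycle and the oxoglutarate dehydrogenase complex. A search by the process name alone would thus have missed the first subunit entirely. The 12 dehydrogenase sequences were all placed in the mitochondrial matrix, and they held 50% of the 24 sequences of the table with thiamin pyrophosphate binding. Their 2 best annotated members, comp805888_c0_seq1_1 and comp1086903_c0_seq1_3, had 11 terms each because nematode larval development, determination of adult lifespan and growth terms were added. Lipoic acid binding was listed for all 9 succinyltransferases, of 22 sequences with this term in the table. The mitochondrion was named for 7 of the 9, and the centrosome in addition for 3, among them comp36497_c0_seq1_8 and comp1003885_c0_seq1_2, with 6 terms each.

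Succinate-CoA ligase, which makes ATP or GTP from succinyl-CoA, had the most sequences of the activities, 20 in 20 components. The ADP-forming name alone was listed for 11, the GDP-forming name alone for 2, and both names for 7. The tricarboxylic acid cycle was named for 16 of the 20 and mitochondrial terms were listed for 14. The 2 GDP-forming sequences, comp63854_c0_seq2_37 and comp690914_c0_seq1_2, were mitochondrial and listed both ATP and GTP binding. The 7 sequences with both names formed a distinct class. All 7 listed GTP binding, a mitochondrial term and ATP citrate synthase activity, 0 listed ATP binding and 6 listed copper ion binding. Cell wall and response to cadmium ion were added for 4 of them, including comp34951_c0_seq1_16 and comp58099_c0_seq1_5, with 9 terms each. Of the ADP-forming sequences, 7 lacked ATP citrate synthase activity. These all listed ATP binding, 4 of them with mitochondrial terms and 3 with no compartment.

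ATP citrate synthase, also known as ATP-citrate lyase, splits citrate into acetyl-CoA and oxaloacetate outside the mitochondrion and supplies acetyl-CoA for lipid synthesis. It is related in sequence to succinate-CoA ligase. Its activity was listed for 12 sequences, and 11 of them listed succinate-CoA ligase as well. The lipid biosynthetic process term separated them. It was listed for 5 of the 12, of 8 sequences with this term in the whole table, and 4 of the 5 were placed in the cytoplasm or cytosol. The 4 with a ligase name were comp690119_c0_seq1_7, comp920143_c0_seq1_5, comp999243_c0_seq1_5 and comp1358925_c0_seq1_1. Acetyl-CoA biosynthetic process was added for comp999243_c0_seq1_5 and for comp1358925_c0_seq1_1, which was the mitochondrial member of the 5. The fifth, comp1012879_c0_seq1_5, listed ATP citrate synthase without any ligase, in the cytosol and nucleus, and was the only one of the 5 with the tricarboxylic acid cycle term. All 5 had component numbers above 100000. The other 7 were the mitochondrial class with both ligase names described above, 5 above 100000 and 2 below.

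Succinate dehydrogenase oxidises succinate to fumarate and is at the same time complex II of the respiratory chain. It was listed for 16 sequences of 15 components, all of which carried the tricarboxylic acid cycle, electron carrier activity and an electron transport process. The cofactor terms divided the sequences into 2 classes without overlap. FAD binding, which marks the flavoprotein subunit, was listed for 10 sequences. The 2 iron, 2 sulfur, the 3 iron, 4 sulfur and the 4 iron, 4 sulfur clusters of the iron-sulfur subunit were listed together for 6, and 0 sequences listed both FAD and a cluster. The inner membrane was named for 14. The remaining 2, comp56519_c0_seq1_24 and comp752116_c0_seq1_2, named complex II instead, listed ubiquinone binding and had 11 terms each. Heme sits in the membrane anchor of complex II, and heme binding, complex II and integral to membrane were listed for comp1046759_c0_seq1_6. It carried the tricarboxylic acid cycle term but no activity of the enzyme list, the only sequence of the 145 without one. Positive phototaxis was listed for 2 flavoprotein sequences, comp37160_c0_seq2_2 and comp684985_c0_seq1_3, of 8 sequences in the table.

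Fumarate hydratase, which adds water to fumarate, is known as 2 unrelated proteins, an oxygen-sensitive iron-sulfur enzyme frequent in bacteria and a cluster-free enzyme of mitochondria. Both kinds were found among 8 sequences. A 4 iron, 4 sulfur cluster was listed for 5, of which 0 carried a mitochondrial term and 2, comp61552_c0_seq1_13 and comp1031257_c0_seq1_2, were placed in the cytosol. The term biofilm formation was added for comp1031257_c0_seq1_2. The other 3, comp57240_c0_seq2_34, comp406515_c0_seq1_4 and comp1042812_c0_seq1_5, listed no cluster, and all 3 named the mitochondrion and the tricarboxylic acid cycle enzyme complex. Of these, comp57240_c0_seq2_34 had 9 terms, with pollen tube development and responses to salt and oxidative stress, and comp1042812_c0_seq1_5 had 7, with homeostasis of cell number within a tissue. The cluster form had 4 sequences above and 1 below component number 100000, and the cluster-free form 2 above and 1 below.

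L-malate dehydrogenase, which closes the cycle by forming oxaloacetate, was listed for 12 sequences of 12 components. Each of the 12 carried the tricarboxylic acid cycle, glycolysis and malate metabolic process. The mitochondrial matrix was named for 6, 3 of them with the inner membrane. The cytoplasm was named for comp57239_c0_seq1_32, the glyoxysome for comp59139_c0_seq1_27 and no compartment for 4. The glyoxysome is the peroxisome of fat-degrading plant tissue, and comp59139_c0_seq1_27 was also the only L-malate dehydrogenase with the glyoxylate cycle term. With 11 terms each, comp364712_c0_seq1_3 and comp1009107_c0_seq1_5 were the best annotated. Adult lifespan, embryonic development and receptor-mediated endocytosis were listed for comp364712_c0_seq1_3, and NADH, oxaloacetate and NADP+-dependent malate dehydrogenase terms for comp1009107_c0_seq1_5.

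The 2 enzymes particular to the glyoxylate cycle had few sequences. Isocitrate lyase, which splits isocitrate into succinate and glyoxylate, was listed for 3, and malate synthase, which joins glyoxylate with acetyl-CoA, for 4. Because 2 sequences listed both activities, these were 5 sequences in all. The pair with both, comp715007_c0_seq1_11 and comp1023742_c0_seq1_7, had no compartment, carried determination of adult lifespan, and lay above component number 100000. A fused protein with both activities is known from nematodes. The separate isocitrate lyase, comp60675_c0_seq1_10, was placed in the cytoplasm. Of the separate malate synthases, comp65302_c1_seq2_57 was placed in the glyoxysome and comp491458_c0_seq1_3 in the cytoplasm. All 5 carried both cycle terms.

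**Figure D2:**
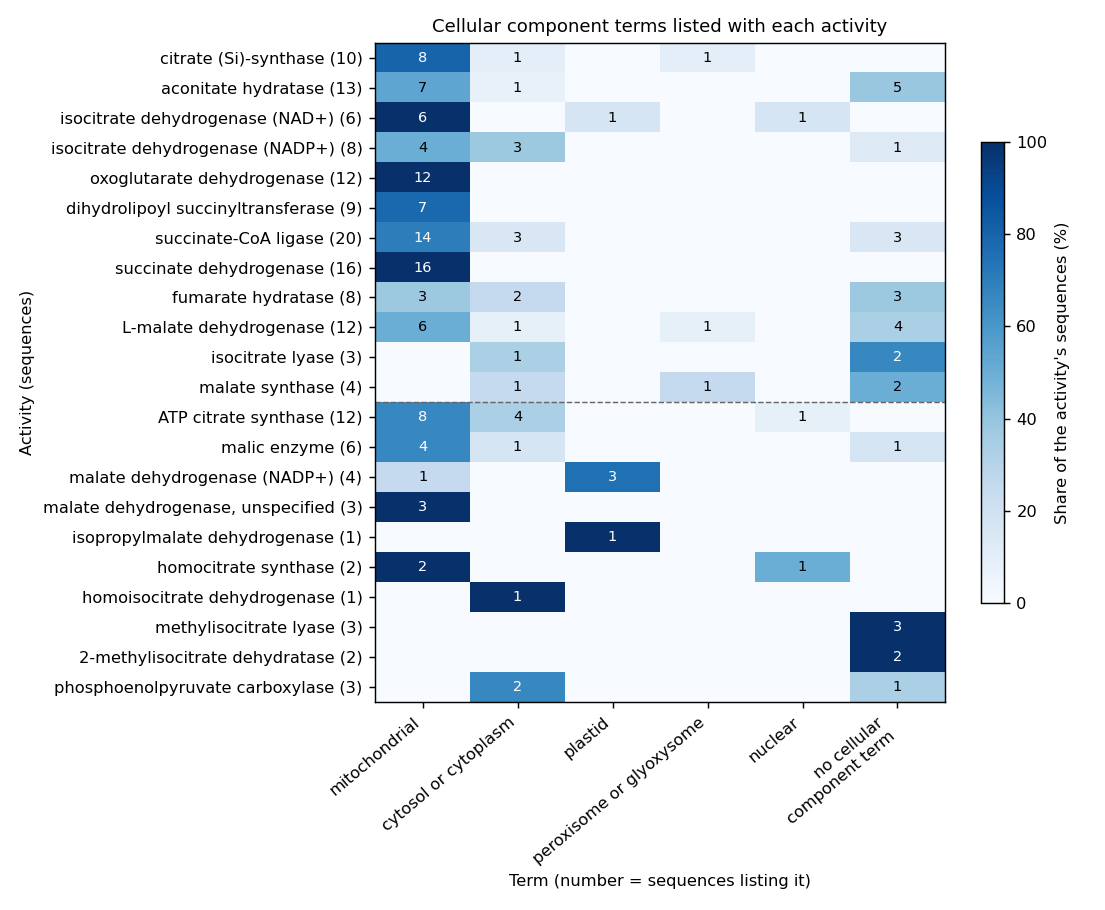
Compartment terms (columns) listed with each enzyme activity (rows, with its number of sequences), where the printed number is the count of sequences and the shade is their share of the activity's sequences in percent. A sequence can stand in several columns. All 16 succinate dehydrogenase and all 12 oxoglutarate dehydrogenase sequences list a mitochondrial term, while isocitrate lyase and malate synthase list none.

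Other activities entered the set through shared words. Malic enzyme, which turns malate into pyruvate and carbon dioxide, was listed for 6 sequences, none with the tricarboxylic acid cycle term. All 6 listed NAD or NADH binding and metal ion binding. The mitochondrial matrix was named for comp62603_c0_seq1_16, comp1006574_c0_seq1_3, comp1077258_c0_seq1_3 and comp57085_c0_seq1_30, no compartment for comp1043819_c0_seq1_4, and the cytoplasm for comp1048881_c0_seq1_4, whose activity was the NADP+-dependent one. The NADP+-dependent malate dehydrogenase, a chloroplast enzyme of plants that exports reducing power, was listed for 4 sequences. The chloroplast was named for comp62035_c2_seq1_6, comp62035_c3_seq3_38 and comp62035_c3_seq5_35, while the fourth was the mitochondrial comp1009107_c0_seq1_5. A malate dehydrogenase activity with no acceptor was listed for the 3 transcripts of comp47744_c0 (seq7_8, seq11_8 and seq12_6). They also carried triglyceride lipase, listed for 4 sequences of the table, with digestion, lipid catabolic process and extracellular region, terms of a secreted fat-splitting enzyme.

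Amino acid synthesis contributed 4 sequences. These were comp50233_c0_seq1_28, a 3-isopropylmalate dehydrogenase of leucine synthesis in the chloroplast envelope and stroma, the homocitrate synthases comp419386_c0_seq1_10 and comp927114_c0_seq1_2, and the homoisocitrate dehydrogenase comp1163933_c0_seq1_1. The latter 3 act in the aminoadipate route of lysine synthesis, which is known from fungi, and all 3 lay above component number 100000. Methylisocitrate lyase, an enzyme of propionate breakdown in bacteria and fungi, had the fewest terms per sequence. Its 3 sequences, comp530689_c0_seq1_2, comp803850_c0_seq1_2 and comp832923_c0_seq1_3, had 2 terms each and also lay above 100000.

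Phosphoenolpyruvate carboxylase, which refills the cycle with oxaloacetate, was found through the process name alone. Its 3 sequences were comp64234_c0_seq3_40 and comp991698_c0_seq1_2, both cytoplasmic, and comp1574434_c0_seq1_3, with no compartment, and all 3 listed carbon fixation. The process name also brought in comp718110_c0_seq1_7 and comp1077437_c0_seq1_2, which were 2 of the 9 sequences of the table with transhydrogenase activity, the transfer of reducing power between NADH and NADPH.

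The cofactor terms, which the rule did not use, differed from step to step. NAD or NADH binding was listed for 20 of the 145 sequences, which were 23.5% of the 85 in the table. An iron-sulfur term was listed for 24, namely the 13 aconitases, 5 fumarases and 6 succinate dehydrogenases described above, of 151 in the table. Metal ion binding was listed for 39. ATP binding stood on 18 sequences, 12.4% beside 28.1% of all annotated sequences. Electron carrier activity was listed for the 16 succinate dehydrogenases and for no other sequence of the set. No NAD or NADH binding term was listed for any of the 12 L-malate dehydrogenases, which are NAD-dependent by reaction. Their sequences carried the unspecific term binding or protein self-association, so an absent cofactor term is not evidence that the cofactor is not used.

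**Figure D3:**
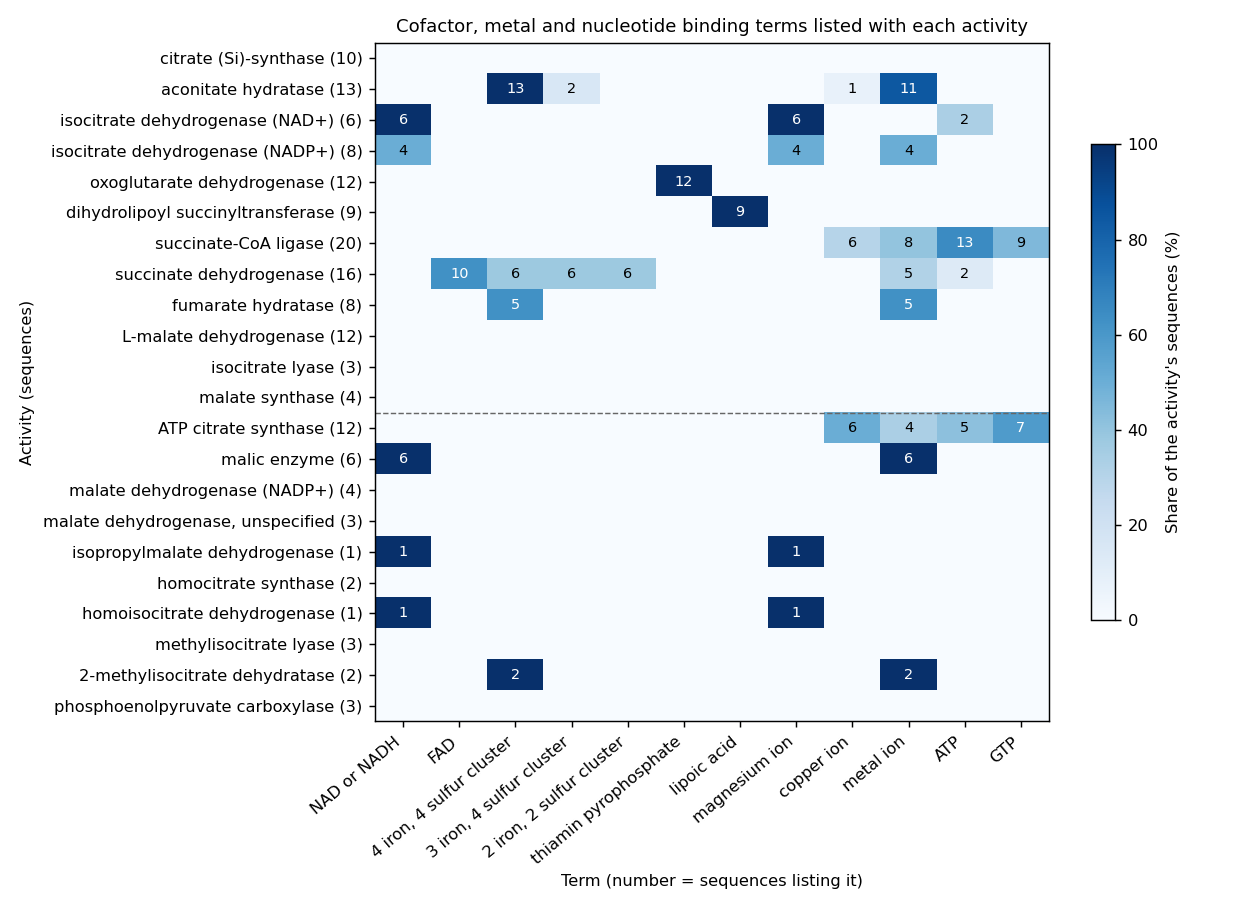
Cofactor, metal and nucleotide binding terms (columns) listed with each enzyme activity (rows, with its number of sequences), where the printed number is the count of sequences and the shade is their share in percent. The FAD column and the 3 iron-sulfur columns of succinate dehydrogenase hold 10 and 6 sequences, and thiamin pyrophosphate and lipoic acid each stand in a single row.

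Mitochondrial terms were listed for 95 of the 145 sequences (65.5%). The same share was 11.3% of all 6812 sequences (772), 22.2% of the 185 sequences of glycolysis, gluconeogenesis and the pentose phosphate pathway, and 61.9% of the 218 sequences of the respiratory chain and ATP synthesis. The respiratory chain list was itself chosen partly by mitochondrial words, such as mitochondrial electron transport, which sets part of its share. The single terms were mitochondrion, on 44 sequences, the mitochondrial matrix, on 30, and the inner membrane, on 18. The matrix term was concentrated in the set, which held 16.4% of the 183 sequences with it. The cytoplasm term stood on 14, and the cell wall and the phagocytic vesicle on 6 each.

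The other compartments had smaller shares. The cytosol or cytoplasm was named for 18 sequences (12.4%), beside 23.5% of all sequences, 38.9% in glycolysis and 1.38% in the respiratory chain. Plastid terms were listed for 5 (3.45%), beside 10.8% of all sequences, 14.1% in glycolysis and 16.5% in the respiratory chain. These 5 were the chloroplast sequences of NADP+-dependent malate dehydrogenase, of isopropylmalate dehydrogenase and of NAD+ isocitrate dehydrogenase named above. The peroxisome or glyoxysome was named for 3 (2.07%), beside 1.01% of all sequences, namely a citrate synthase, an L-malate dehydrogenase and a malate synthase. The set held 2 of the 9 glyoxysome sequences of the table. Nuclear terms stood on 3 (2.07%), beside 17.4% of all sequences, 4.32% in glycolysis and 1.83% in the respiratory chain. Most sequences, 116, named a single one of these compartments, 4 named 2, and 25 named none.

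**Figure D4:**
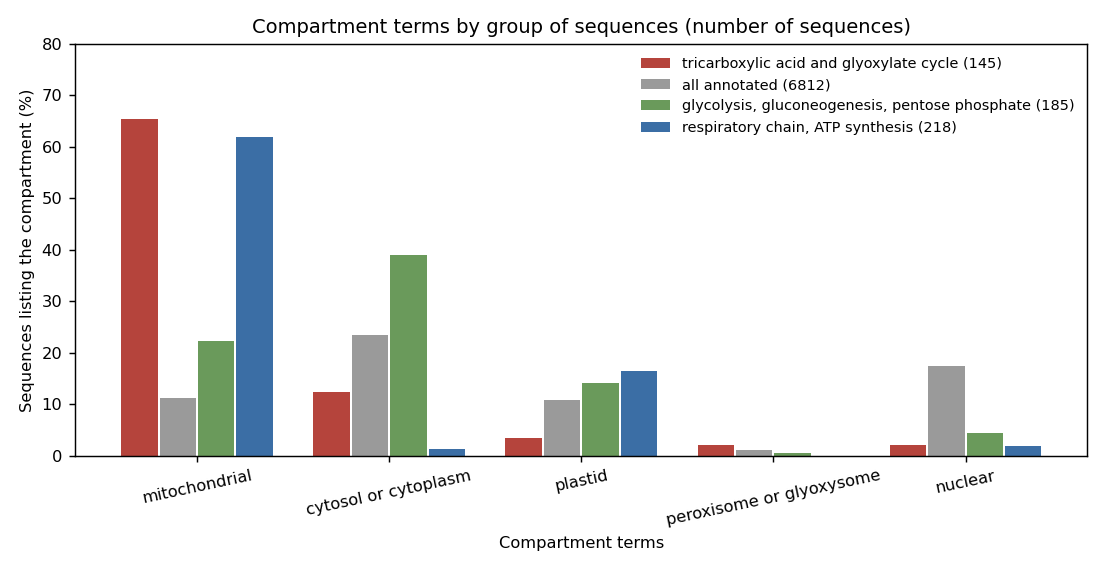
Share of sequences (y axis, percent) with terms of each compartment (x axis) in the tricarboxylic acid and glyoxylate cycle set, in all annotated sequences and in the glycolysis and respiratory chain lists, with the number of sequences in the legend. The cycle set and the respiratory chain stand at 65.5% and 61.9% for mitochondrial terms, while the other lists reach at most 22.2%.

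Trinity component numbers fell into a low and a high range. The set reached from 1821 to 65824 and again from 270005 to 1667892, with no sequence in between. In this gap lay 213 of all 6812 sequences, 0 of the glycolysis list and 18 of the respiratory chain list. At a boundary of 100000, 91 of the 145 sequences (62.8%) lay above and 54 below. The share above was 50.3% for all annotated sequences, 63.8% for glycolysis and 57.8% for the respiratory chain. Counted per component, the share above was 65.9% for the set and 55.6% for all annotated sequences. It was 65.2% for glycolysis and 61.8% for the respiratory chain. The last number of an identifier, read here as the number of the open reading frame, had a median of 4 above and 12.5 below, beside 3 and 13 over all annotated sequences. With the comparison limited to frame numbers of at most 5, the shares above were 86.5% in the set, 81.3% in all sequences, 88.3% in glycolysis and 77.5% in the respiratory chain.

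**Figure D5:**
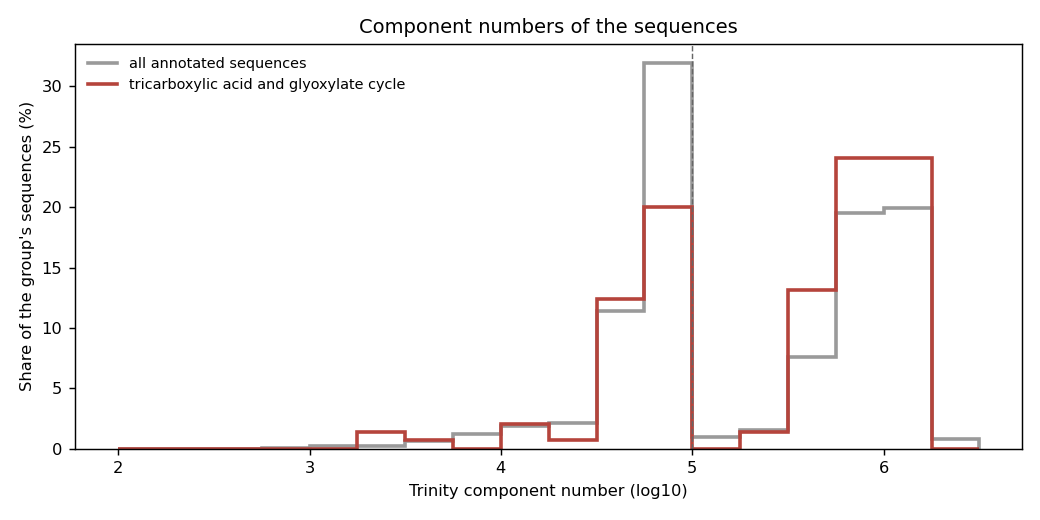
Distribution of the Trinity component number (x axis, log10 scale) for all annotated sequences (grey) and for the tricarboxylic acid and glyoxylate cycle set (red), as the share of each group's sequences in percent (y axis), with a dashed line at 100000. Both groups show a low and a high range, and 62.8% of the set lies to the right of the line, beside 50.3% of all sequences.

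Both ranges held most of the enzymes. Of the 11 activities that belong to steps of the tricarboxylic acid cycle, 10 had sequences of the set on both sides. The exception was dihydrolipoyl dehydrogenase, whose 9 sequences did not meet the rule and lay 6 above and 3 below. The division was even for L-malate dehydrogenase, with 6 above and 6 below, and for NAD+ isocitrate dehydrogenase, with 3 and 3. More sequences lay above than below for succinate-CoA ligase, with 15 and 5, succinate dehydrogenase, with 11 and 5, oxoglutarate dehydrogenase, with 9 and 3, fumarate hydratase, with 6 and 2, dihydrolipoyl succinyltransferase, with 6 and 3, citrate synthase, with 6 and 4, and aconitate hydratase, with 7 and 6. In the set as a whole 62.8% lay above. NADP+ isocitrate dehydrogenase had more sequences below, 5 beside 3 above, but 3 of the 5 were transcripts of comp63914_c1, and counted per component it had 3 on each side. Mitochondrial terms were listed for 63.7% of the set above and 68.5% below, beside 13% above and 9.61% below over all annotated sequences. Plastid and peroxisome terms were on the low side only. A plastid term was listed for 5 of 54 sequences below and 0 of 91 above (9.26% and 0%). These 5 came from 4 components, and 3 of them were NADP+-dependent malate dehydrogenases of 2 components. The 3 peroxisome or glyoxysome sequences were also below. In the whole table plastid terms were listed for 15.9% below and 5.83% above, and peroxisome or glyoxysome terms for 1.15% below and 0.875% above.

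Animal terms were counted by a chosen list of words: embryonic development ending in birth, nematode, larval, adult lifespan and cells within a tissue. Such terms were listed for 6 of the 91 sequences of the set above 100000 and 0 of the 54 below. Over all annotated sequences they were listed for 181, with 153 of 3429 above and 28 of 3383 below. They were thus mostly on the high side in the whole table as well. The 6 were comp364712_c0_seq1_3, comp715007_c0_seq1_11, comp805888_c0_seq1_1, comp1023742_c0_seq1_7, comp1042812_c0_seq1_5 and comp1086903_c0_seq1_3. Determination of adult lifespan was listed for 5 of them and for 33 sequences of the table. By activity they were 2 of 12 oxoglutarate dehydrogenases, 1 of 8 fumarases, 1 of 12 L-malate dehydrogenases, 2 of 3 isocitrate lyases and 2 of 4 malate synthases, where the same 2 sequences list both of the last activities. The division of terms outside this list varied. Positive regulation of growth rate was listed for 3 sequences of the set above and 0 below, and digestion for 0 above and 3 below. The phagocytic vesicle stood on 3 above and 3 below, and the centrosome on 2 above and 1 below.

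Whole combinations of terms were often shared within the set, and this was not counted for all annotated sequences or the other lists. The 145 sequences had 79 distinct combinations of terms. Of these combinations, 44 stood on a single sequence, and 35 were shared by the other 101 sequences. Sequences on both sides of the boundary carried 16 of the combinations, 55 sequences in all. The largest such group was oxoglutarate dehydrogenase, where 9 sequences had the same 5 terms, 6 above and 3 below. Of the 138 components, 5 held more than 1 sequence of the set, with 12 sequences in all. The terms were identical within each of these 5 components. Over the whole table, 6812 sequences came from 6164 components.

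The set had a median of 6 terms per sequence, with quartiles of 5 and 8 and a range of 2 to 11, beside a median of 5 and a range of 1 to 48 over all annotated sequences. A rule on term names favours sequences with many terms, and without the terms that met the rule the median was 4. The highest number, 11, was shared by 7 sequences, namely comp1009107_c0_seq1_5, comp1056172_c0_seq1_3, comp1086903_c0_seq1_3, comp364712_c0_seq1_3, comp56519_c0_seq1_24, comp752116_c0_seq1_2 and comp805888_c0_seq1_1. Beside the rule terms, oxidation reduction was the most frequent, on 51 sequences (35.2%, beside 9.59% of all). Every one of the 25 sequences of the table with malate metabolic process and of the 14 with cellular carbohydrate metabolic process belonged to the set. They listed malate dehydrogenase, malic enzyme, fumarate hydratase, citrate synthase or ATP citrate synthase activities. The rule took these through its own phrases, which sets much of this share. Glycolysis was listed for 24 sequences, transport for 17 and cytoplasm for 14.

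The set overlapped with its neighbours through few enzymes. It shared 24 sequences with the glycolysis list, 16.6% of the set and 13% of that list, and these were the 12 oxoglutarate and the 12 L-malate dehydrogenases. It shared 7 with the respiratory chain list, 4.83% of the set and 3.21% of that list. These were 4 succinate dehydrogenases, the 2 transhydrogenases and the heme-binding complex II sequence. Most succinate dehydrogenases were therefore outside the respiratory chain list, although the enzyme is part of that chain, because their terms named electron transport without the words that list used.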

How the data were processed

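RNA of 7 libraries was sequenced as paired-end reads on an Illumina HiSeq. The authors filtered the reads, assembled them with Trinity (whether the 7 libraries were pooled is not given in the sources used here), took open reading frames with GetORF and assigned GO terms with Blastp and GoPipe. The deposited table pairs identifiers with GO terms and domain letters in text columns, with 39529 lines and 3681 distinct terms. Per the file itself it has 0 columns of values per sample, and the depth per sample is not given there. Members and lists were chosen with earlier results of these data known, including the boundary at component number 100000. The enzyme list was adjusted once term names had been seen, which added homocitrate synthase and the decarboxylating malate dehydrogenases to the activities of other pathways. Distinct identifiers were counted with Python 3.11.15 and NumPy 2.4.6 and plotted with Matplotlib 3.10.9, after the counting was tested on simulated data. Glycolysis sequences were those with glycolysis, gluconeogenesis or pentose-phosphate in a term name. Respiratory chain sequences had respiratory chain, NADH dehydrogenase, cytochrome-c oxidase, ubiquinol-cytochrome-c, mitochondrial electron transport or ATP synthesis coupled proton transport. Named sequences were all of those of an activity with at most 6, otherwise the 2 with the most terms (ties by component number), the 5 members with the most terms (7 tied), and components with 3 or more members, with others named where a count was small. Of 30548 reference genes from RefSeq assembly ASM3014472v1, 0 matched the identifiers, so no sequence, symbol or position is given. Alternatives changed the words of the rule, the compartment terms, the counting unit, the boundary and the frame number.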

Additional observations from a re-analysis of the deposited data

How the results depend on the processing

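The number of sequences stayed within 1.5 times the reported 145 under the alternatives tried. It was 138 with 1 count per component, 110 with process terms only, 129 without terms of other pathways, 158 with a wider word list and 151 with that list after light-harvesting complex II terms were removed, an alternative chosen after seeing the data. Mitochondrial terms stood on 51% of the sequences, in place of 65.5%, when only mitochondrion and mitochondrial matrix counted, which drops sequences placed in the inner membrane alone, such as succinate dehydrogenase. Between 63.3% and 69% was found under the other alternatives. The share above component number 100000 was 86.5%, in place of 62.8%, with frame numbers of at most 5, and between 60.1% and 65.9% otherwise. Without the rule terms the median number of terms was 4 in place of 6. Counted per component, the unspecified malate dehydrogenase had 1 in place of 3. No paired analysis was possible because each condition has 1 library and the table has no values per library. The table gives no depth, so a sequence that is not listed may be unannotated, unassembled or unexpressed.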

Other observations

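Enzymes that feed the cycle but fell outside the rule were also listed. Pyruvate dehydrogenase, which supplies acetyl-CoA, had 15 sequences, 10 above component number 100000 and 5 below. All 15 carried glycolysis and 0 the tricarboxylic acid cycle, the same process terms as the related oxoglutarate dehydrogenase. Mitochondrial terms stood on 13 of them and plastid terms on 2, both below. The dihydrolipoyl acetyltransferase of the same complex had 8 sequences, and the dihydrolipoyl dehydrogenase shared by both complexes had 9, each with FAD binding. Acetate-CoA ligase, which activates acetate for either cycle, had 15 sequences, 9 above and 6 below.

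Enzymes between oxaloacetate, phosphoenolpyruvate and pyruvate were listed as well. Phosphoenolpyruvate carboxykinase, the step from oxaloacetate towards sugar synthesis, had 16 sequences, 11 of the ATP type known from plants and 5 of the GTP type known from animals. Of the ATP type 7 lay above 100000 and 4 below, and of the GTP type 4 above and 1 below. Pyruvate, phosphate dikinase had 11 sequences, 5 above and 6 below. Pyruvate carboxylase, which makes oxaloacetate from pyruvate, had 4 sequences, and all 4 lay above. No sequence carried a term name for tricarboxylate or dicarboxylate transport.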
